A study of Caenorhabditis elegans with 12 samples.

Results

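Isolated autosomal N2-only sites are MRG-1 binding sites on chromosomes II, III, IV and V that were called by ChIP-seq in wild-type worms, and not in worms without a normal germline, with no site of the germline-less worms close by. They were chosen by the peak calls themselves. Chromosome I, also an autosome, was left out by the rule. Peaks of all 6 MRG-1 lists were joined into 1 site wherever they shared 1 bp or more. A member needed calls in 2 or 3 of the N2 samples and none in *glp-4(bn2)*, and had to lie more than 2000 bp from the nearest site called in any *glp-4(bn2)* sample. This rule gave 329 sites, which is 5.93% of the 5548 merged sites on these chromosomes, out of 8226 merged sites in the whole series. That percentage follows from the rule, and nothing is read from it. Together the members covered 430 kb.

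The *glp-4(bn2)* samples were 3 replicates of strain SS104, which carries a temperature-sensitive allele of *glp-4*, a gene for a valyl-tRNA synthetase. The reference samples were 3 replicates of N2, the Bristol wild type. Both strains were kept at 15° and fed OP50. Synchronized larvae of both were then raised at 25° up to the L4 stage, and whole worms were used for ChIP with an antibody against MRG-1. At this temperature the germline of the mutant arrests early and a few arrested germ cells remain, so these worms are a model of soma with hardly any germline. The lists hold no measure of germ cell number, and the loss of the germline could not be checked in them. In whole worms, binding in fewer cells cannot be told apart from weaker binding per cell. The labels do not say whether replicates came from separate cultures, so the spread between them may be technical. The 6 input samples were not analysed here.

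MRG-1 is the worm ortholog of mammalian MRG15, a chromodomain protein. MRG15 associates with trimethylated lysine 36 of histone H3, a mark laid down over the bodies of transcribed genes. In the worm germline, MES-4 maintains this mark on genes with germline expression, most of which are autosomal, and MRG-1 is needed for germline development. Sites called in N2 and not in *glp-4(bn2)* are thus the sites at which the design looks for germline binding.

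The 6 lists held 7303 to 7584 peaks in *glp-4(bn2)* and 7073 to 7737 in N2. No pair of lists shared more than 1 peak with identical ends, so the lists are distinct. The background level at which each list was called was recovered from its p-values. It was 68.9, 60.6 and 68.9 extended reads per base in *glp-4(bn2)* replicates 1, 2 and 3, and 96.8, 88.9 and 77.2 in the N2 replicates. At a high level, smaller folds reach the q-value limit. A peak at the background level needed a fold of 1.30, 1.32 and 1.30 in the *glp-4(bn2)* lists and 1.25, 1.27 and 1.28 in the N2 lists. Of the 329 members, 324 (98.5%) had folds above 1.32 in every N2 sample that called them. In single N2 lists, 99.0% to 99.7% of the members called there lay above it. For N2-only sites within 2000 bp of a *glp-4(bn2)* site the range was 99.1% to 99.7%, and for sites called in all 6 samples 99.9% to 100%. Nearly all called sites of these groups passed, so the share is not particular to members. The fold at a member in *glp-4(bn2)* is not known, since the lists give values for called peaks only.

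Of the members, 215 were called in all 3 N2 samples (65.3%, 95% Wilson interval 60.1% to 70.3%, for counting error only), and 114 in 2 of them. N2 replicates 1 and 2 alone called 53 sites, replicates 1 and 3 called 42, and replicates 2 and 3 called 19. Members called in all 3 samples were wider, with a median width of 1382 bp, against 605 bp for those called in 2. Their lowest fold over the N2 samples had a median of 1.88, against 1.60 for members called in 2. Both groups overlapped, as the plot of width and fold shows. By width, 9 of the 50 members of at most 500 bp were called in all 3 samples, and 57 of the 58 members wider than 2000 bp were. A wide merged site has more bases at which a further list can touch it, so width and number of calls are not independent.

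**Figure D1:**
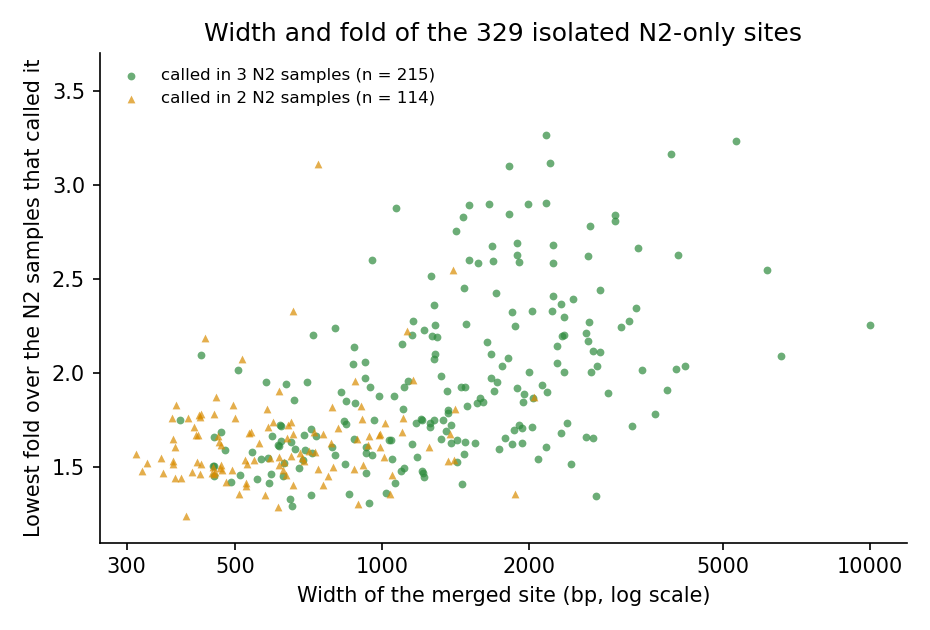
Width of each isolated N2-only site in bp (log scale) against the lowest fold over the N2 samples that called it. Circles are the 215 members called in all 3 N2 samples and triangles the 114 called in 2, which lie mostly at narrow widths and low folds.

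The folds of the members were in the lower and middle part of each N2 list. For each site and sample the highest fold among its peaks was taken, and most members had a single peak per sample (284 of 329, or 86.3%, had no more than 1 in any sample). In N2 replicate 1, folds ran from 1.29 to 5.37 over the 310 members called there, with a median of 1.85. In N2 replicate 2 they ran from 1.24 to 4.39 over 287 members, with a median of 2.17. In N2 replicate 3 they ran from 1.30 to 5.07 over 276 members, with a median of 1.94. These medians lie at percentiles 29.6, 44.3 and 33.3 of these lists, so members ranked highest in N2 replicate 2. Of the 215 members called in all 3 samples, 138 had their highest fold in replicate 2, 45 in replicate 1 and 32 in replicate 3. Of the members called in N2 replicates 1, 2 and 3, 89.7%, 92.7% and 88.0% had a q-value of at most 1e-05 there. These shares were 83.2%, 88.7% and 79.4% for N2-only sites within 2000 bp of a *glp-4(bn2)* site. Sites called in all 6 samples had higher shares than members, 99.7%, 99.3% and 99.2%. A fold of at least 2 in all 3 N2 samples was reached by 85 members (25.8%).

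Members were set against the 424 N2-only sites on chromosomes II to V that lie within 2000 bp of a site called in *glp-4(bn2)*, called flanking sites here. Both groups follow the same rule on calls and differ in the gap, which is itself part of the rule. An N2 peak that overlaps a *glp-4(bn2)* peak joins its site, and a wide peak near one is more likely to overlap it. The differences in fold and width below may thus follow in part from the rule. How far they do was not tested. Flanking sites had medians of 1.70 in N2 replicate 1, 1.82 in replicate 2 and 1.75 in replicate 3. The members' medians were thus higher by 0.15, 0.35 and 0.19 fold units, or 0.23 ± 0.11 on average (SD, n = 3 samples). The difference was positive in 3 of 3 samples, which gives p = 0.25 in a two-sided exact sign-flip permutation test, the smallest value that 3 samples allow. The highest fold was 5.37 for members against 3.35 for flanking sites in N2 replicate 1, 4.39 against 5.20 in replicate 2 and 5.07 against 3.29 in replicate 3, while the lowest lay between 1.24 and 1.31 in both groups, so single sites of the 2 groups overlapped in every list. The difference shrank to 0.15 without *glp-4(bn2)* replicate 2, and was 0.12 with a gap of 1000 bp and 0.39 with a gap of 5000 bp in the rule. Members were wider as well, with a median of 1012 bp (quartiles 617 and 1693) against 739 bp for flanking sites. In the 2449 sites on these chromosomes that all 6 samples called, median folds were 3.79, 3.93 and 3.67 in the N2 lists, above the members in each list.

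**Figure D2:**
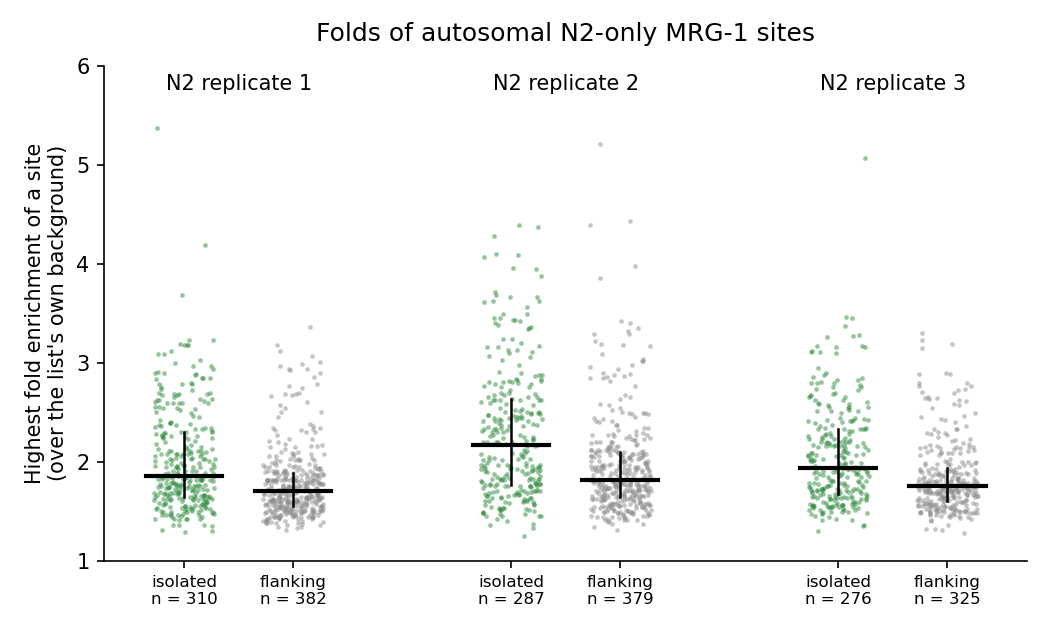
Highest fold of each site in N2 replicates 1, 2 and 3, for isolated and flanking autosomal N2-only sites. Horizontal bars are medians and vertical bars span the quartiles; the medians of isolated sites are 1.85, 2.17 and 1.94, against 1.70, 1.82 and 1.75 for flanking sites, with wide overlap.

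Within the members, median folds differed between ranges of the gap to *glp-4(bn2)* binding, without a steady rise. The 136 members with a gap of 2 to 5 kb had medians of 1.76 in N2 replicate 1, 1.83 in replicate 2 and 1.85 in replicate 3. The 77 members at 5 to 10 kb had 1.95, 2.32 and 2.12, and the 99 members at 10 to 50 kb had 2.07, 2.43 and 2.05. The last 17 members lay over 50 kb away, with medians of 1.94, 2.36 and 1.77. Of these, 8 were neighbours on chromosome II between 1916709 and 1930595. In every N2 list, members nearest to *glp-4(bn2)* binding thus had lower medians than those at 5 to 50 kb, and the most remote members gave no common order. The share called in all 3 samples was 54.4% at 2 to 5 kb and 76.8% at 10 to 50 kb. These bins share the same samples and are given as a description.

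Since the rule used all 6 lists, calls were also counted in samples that had no part in choosing the sites. The same rule was applied to 2 samples of each strain, with a call required in both N2 samples, and the remaining sample of each strain was held out. The 9 possible choices gave 242 to 351 sites. The held-out *glp-4(bn2)* sample called 5.83% of these sites on average and the held-out N2 sample 85.6%. Ranges were 1.08% to 14.4% for *glp-4(bn2)* and 78.5% to 92.1% for N2, which do not overlap. All other sites on these chromosomes were called in 67.2% of cases by the held-out *glp-4(bn2)* sample and in 72.3% by the held-out N2 sample. These other sites had no rule on calls, and include sites called in *glp-4(bn2)* and sites called in a single list. They are a background and not a matched group, so their contrast with the chosen sites follows in part from the choice. The 9 choices share samples, so their spread is a description and no p-value is given.

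The held-out samples were not alike. As the held-out sample, *glp-4(bn2)* replicate 2 called 12.8% of the sites, compared with 3.08% for replicate 1 and 1.55% for replicate 3. Of all *glp-4(bn2)* lists it was also the one that covered most bases, 15.7 Mb, compared with 14.2 and 13.6 Mb. Without it, the number of members would be 409 in place of 329, while leaving out *glp-4(bn2)* replicate 1 or 3 gave 346 or 338. Among held-out N2 samples, replicate 1 called 91.8% of the sites, replicate 2 84.8% and replicate 3 80.1%. The mirrored rule, with 2 or 3 calls in *glp-4(bn2)*, none in N2 and the same gap to N2 sites, gave 275 sites on these chromosomes. Chosen on 4 samples in the same way, such sites were called by the held-out *glp-4(bn2)* sample in 83.2% of cases and by the held-out N2 sample in 8.04%. Isolated sites of both strains thus mostly recurred in the remaining sample of the strain they were chosen in, and the difference between 85.6% and 83.2% was not tested.

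**Figure D3:**
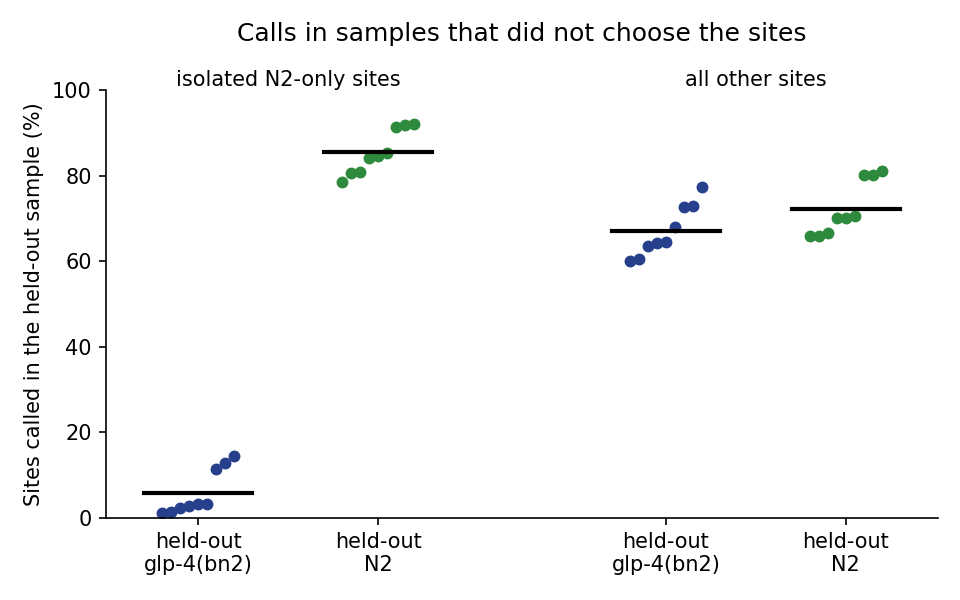
Share of sites called in a held-out sample, for isolated N2-only sites chosen on the other 4 samples and for all other sites on chromosomes II to V. Points are the 9 choices of held-out samples and bars their means, 5.83% in *glp-4(bn2)* and 85.6% in N2 for the isolated sites, against 67.2% and 72.3% for all other sites.

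The gap of a member to the nearest site called in *glp-4(bn2)* had a median of 6.26 kb (quartiles 3.34 and 16.0 kb) and reached 187 kb. It exceeded 10 kb in 116 members (35.3%) and 50 kb in 17. The site at the near end of this gap was one called in all 6 samples for 190 members (57.8%), and one called in both strains, though not in all samples, for 87. For 28 members it was called only in *glp-4(bn2)*, in 2 or 3 samples. For the other 24 it was called in a single *glp-4(bn2)* sample and in no N2 sample. Counting sites also called in N2, the nearest site had a call from only 1 *glp-4(bn2)* sample for 58 members (17.6%), and this was replicate 2 for 27 of them, replicate 1 for 19 and replicate 3 for 12. The rule kept sites called in *glp-4(bn2)* more than 2000 bp away and set no such limit for N2 sites. That N2 sites lay nearer thus follows in part from the rule. The median gap to the next site called in any N2 sample was 722 bp, and 183 members (55.6%) had another N2 site within 1000 bp.

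Members often lay near one another. Neighbouring members within 10 kb of each other, with no site called in *glp-4(bn2)* between them, were counted as a run. The 329 members formed 63 runs of at least 2 sites, which held 171 members (52.0%), and 158 members stood alone. Of the runs, 44 held 2 sites, 11 held 3 and 8 held between 4 and 8. Members in runs of 4 or more were called in all 3 N2 samples in 43 of 50 cases (86%), compared with 93 of 158 (58.9%) for members standing alone. These 50 members come from 8 runs only, so they are not separate cases. They were also wider, with a median of 1155 bp against 883.5 bp. Their median gap to *glp-4(bn2)* sites was 22.7 kb against 4.53 kb. The difference in calls was not tested. Runs were also found in *glp-4(bn2)*. Among the 275 mirrored *glp-4(bn2)*-only sites, 128 (46.5%) lay in runs, 6 of which held 4 or more sites, and the largest held 8 as well.

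The 4 largest runs lay on chromosome II, all positions being those of ce10 counted from 1. Members named within a run below were picked after their values were seen. The longest ran from 12129458 to 12155001 and held 8 members in 25.5 kb, 7 of them called in all 3 N2 samples. Its strongest member, from 12131051 to 12132961, had fold values of 2.59 in N2 replicate 1, 4.37 in replicate 2 and 2.84 in replicate 3. Its widest member, from 12150821 to 12155001, had 2.68, 2.04 and 2.49, so replicate 2 was highest in the first and lowest in the second. There was no site called in *glp-4(bn2)* within this run or for 21.4 kb before it. The site that ended it, 4.29 kb beyond its last member, held a *glp-4(bn2)* peak of replicate 2 only, as the map of the run shows, and all 3 N2 samples called peaks up to and over that place.

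**Figure D4:**
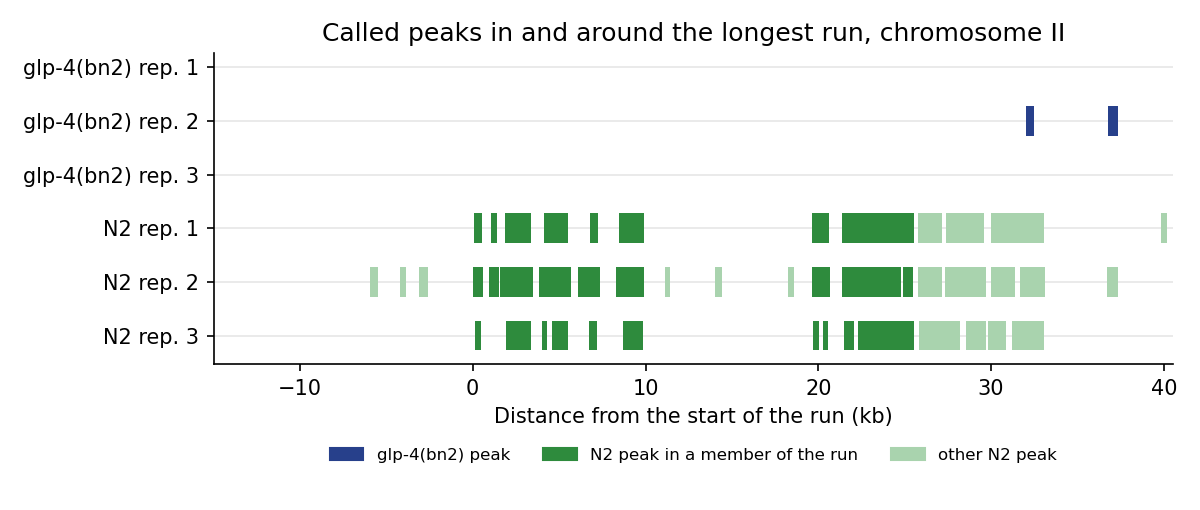
Called peaks of each sample in the longest run on chromosome II and within 15 kb of it, by distance in kb from the start of the run. The 3 *glp-4(bn2)* samples are above the 3 N2 samples; the 8 members span 25.5 kb with no *glp-4(bn2)* peak, and the only *glp-4(bn2)* peaks shown are of replicate 2, beyond the run.

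The other large runs on chromosome II were more remote from *glp-4(bn2)* binding. The run from 3341388 to 3361421 held 8 members, all called in all 3 N2 samples, with 38.3 kb to the nearest *glp-4(bn2)* site on one side and 121 kb on the other. Its folds lay between 1.72 and 3.95. The highest fold was at the member from 3345027 to 3346531, which had 2.60, 3.95 and 3.37 in N2 replicates 1, 2 and 3. In replicate 1 the highest was 2.69, at the member from 3350284 to 3352170. Further along, the run from 3443531 to 3454868 held 7 members with folds of 1.35 to 2.79, and 6 of them were called in all 3 samples. The run from 1916709 to 1930595 held 8 members over 13.9 kb, all called in all 3 samples, and the members took up 81.6% of its length. Its first member, from 1916709 to 1919506, had folds of 3.08, 2.54 and 2.44, and its last, from 1929020 to 1930595, had 2.85, 2.62 and 2.58. The nearest *glp-4(bn2)* sites were 96.7 and 102 kb away.

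Shorter runs lay on chromosomes V, IV and II. On chromosome V, 6 members from 18125557 to 18137663 had folds of 1.68 to 2.55, and 5 of them were called in all 3 samples. On chromosome IV, 5 members from 5483732 to 5490990 included the member of that chromosome with the highest lowest fold over the N2 samples, given below. The run of 4 members from 8061602 to 8071642 on chromosome IV was weaker, with folds of 1.45 to 2.23. The run of 4 members from 4223757 to 4235776 on chromosome II had folds of 1.36 to 3.68, and 2 of its members were called in all 3 samples. Runs of 4 or more thus numbered 5 on chromosome II, 2 on IV, 1 on V and 0 on III.

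By chromosome, members numbered 103 on II, 62 on III, 81 on IV and 83 on V. The share in runs of 4 or more was 34.0% on II, 0% on III, 11.1% on IV and 7.23% on V. Members standing alone numbered 38 on II, 41 on III, 39 on IV and 40 on V. The larger number on II thus lay in its runs, 35 of its members in 5 runs of 4 or more. With each site of a run counted separately, chromosome II held 31.3% of the members. It held 18.2% of the flanking sites, 18.9% of the isolated *glp-4(bn2)*-only sites and 24.1% of the sites called in all 6 samples. Chromosome III went the other way, with 18.8% of the members and 36.1% of the flanking sites. Sites called in all 6 samples had a density of 54.4 per Mb on III, 38.8 on II, 35.4 on IV and 23.7 on V. N2-only sites were isolated in 57.2% of cases on II, 28.8% on III, 42.6% on IV and 49.4% on V. The chromosome with most such sites per Mb thus had the lowest isolated share, while the other 3 chromosomes did not follow that order. The megabase of chromosome II between 3 and 4 Mb held 15 members, the most of any, 14 of them called in all 3 N2 samples. All 15 belong to the runs from 3341388 to 3361421 and from 3443531 to 3454868 described above. The megabase between 1 and 2 Mb followed with 14, including the 8 of the run from 1916709 to 1930595.

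**Figure D5:**
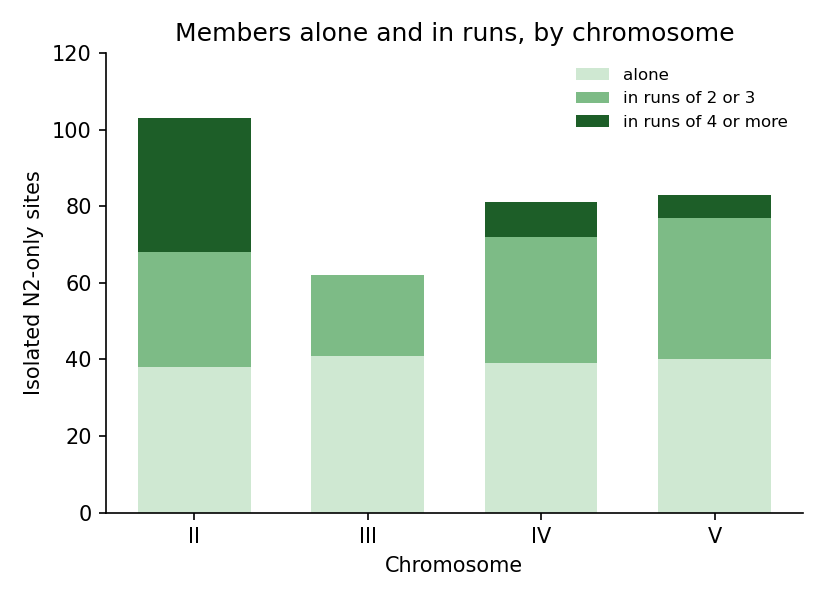
Number of isolated N2-only sites on each chromosome, split into members standing alone, in runs of 2 or 3 and in runs of 4 or more. Chromosome II holds 35 of the 50 members in runs of 4 or more, and chromosome III none.

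Along the chromosomes, 46.2% of the members lay in the middle 50% of the span between the first and the last peak (152 of 329, Wilson interval 40.9% to 51.6%). For flanking sites it was 50.2% (interval 45.5% to 55%), for isolated *glp-4(bn2)*-only sites 54.9% (49.0% to 60.7%), and for sites called in all 6 samples 51.4% (49.4% to 53.3%). The interval of members overlaps with each of these. All of them count neighbouring sites as separate, and the difference between groups was not tested. The 4 chromosomes were not alike. On IV, 64.2% of the members were in the middle 50% (52 of 81), compared with 39.8% on II, 43.5% on III and 38.6% on V. Isolated *glp-4(bn2)*-only sites also had their highest share on IV, 61.5%, compared with 51.5% to 55.8% on the others. Flanking sites had 52.3% on IV and 42.9% to 51.8% on the others. The difference between chromosomes was not tested. Without *glp-4(bn2)* replicate 2 the share over all members was 39.9%. Members in the middle 50% were wider than the others, with medians of 1278.5 and 876 bp, and their median folds were 1.90, 2.22 and 2.06 in the N2 lists, against 1.84, 2.04 and 1.88 for the others.

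Summits of the members agreed between N2 replicates less closely than those of sites called in all 6 samples. In the 172 members with 1 peak in each N2 sample, the 3 summits spread over a median of 148.5 bp (quartiles 86.8 and 282 bp). At widths of 500 to 1500 bp the median was 140 bp for members (103 sites), 142.5 bp for flanking sites (150 sites) and 79 bp for sites called in all 6 samples (509 sites). The order of folds was also less alike. Over the 215 members called in all 3 samples, Spearman's rho was 0.63 between N2 replicates 1 and 2, 0.76 between 1 and 3 and 0.61 between 2 and 3. In flanking sites it was 0.67, 0.67 and 0.63, and in sites called in all 6 samples 0.95, 0.97 and 0.95. The sites of a list share a library and a background, and the folds of members cover a narrower range, so these values describe the lists only.

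The strongest members were taken on each chromosome as the 3 sites called in all 3 N2 samples whose lowest fold was highest. No *glp-4(bn2)* peak exists at any of them, so values are those of N2. On chromosome II, the site from 11259517 to 11261170 had a fold of 2.90 in N2 replicate 1, 3.15 in replicate 2 and 3.45 in replicate 3. It stood alone, 17.9 kb from the nearest site called in any sample. The site from 3350284 to 3352170, in a run described above, had 2.69, 3.49 and 2.95. The site from 4226969 to 4231001 was 4033 bp wide and had 2.63, 3.68 and 3.17. Replicate 3 was highest in the site standing alone and replicate 2 in the other two.

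On chromosome III, the site from 7715258 to 7716720 had folds of 3.08, 3.62 and 2.83, and lay 3.96 kb from *glp-4(bn2)* binding. The remaining sites were neighbours with 338 bp between them near the right end of the chromosome. The one from 13167106 to 13169345 had 2.69, 3.34 and 2.41, and the one from 13169684 to 13172146 had 2.39, 2.82 and 2.57. Replicate 2 was highest in all 3 sites of chromosome III.

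On chromosome IV, the site from 5486541 to 5488706 had folds of 4.19, 3.43 and 3.27, the highest minimum of any member. Here replicate 1 was highest. The site from 13350480 to 13355798 was 5319 bp wide and had 3.23, 4.28 and 3.26. The site from 11401393 to 11403560 had 2.90, 3.66 and 3.11 and lay 29.1 kb from *glp-4(bn2)* binding. These 3 sites ranked between percentiles 65.3 and 78.5 of the N2 lists.

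On chromosome V, the site from 5717530 to 5721436 had folds of 3.18, 4.39 and 3.16, and its gap of 2.03 kb was barely above the limit. The site from 14130920 to 14133128 had 3.22, 3.49 and 3.12 with a gap of 4.04 kb. The site from 10436957 to 10438773 had 3.17, 3.61 and 3.10 with a gap of 2.63 kb. All 3 would be lost with a gap of 5000 bp, although their folds are among the highest.

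The widest member was 10003 bp, on chromosome III from 4429494 to 4439496, with folds of 2.26, 2.72 and 2.52 and no other N2 site within 5.60 kb. The next were 6576 bp on chromosome III, from 13498912 to 13505487, with 2.62, 3.36 and 2.09, and 6136 bp on chromosome II, from 7292224 to 7298359, with 2.93, 3.05 and 2.55. Replicate 2 was highest in each of these 3 sites. Over all 58 members wider than 2000 bp, median folds were 2.35, 2.79 and 2.38 in N2 replicates 1, 2 and 3, compared with 1.67, 1.67 and 1.66 for members of at most 500 bp.

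The most remote member lay on chromosome V from 17154795 to 17155535, 187 kb from any other site called in either strain. N2 replicates 1 and 3 both gave it a fold of 3.11, and replicate 2 did not call it. The next, on chromosome V from 18298226 to 18298577, was a narrow site of 352 bp called in replicates 1 and 3 with 1.82 and 1.55. The third, on chromosome II from 1926341 to 1927722, belongs to a run described above and had folds of 2.33, 2.62 and 1.73. Remoteness therefore went with both strong and weak calls, and replicate 2 lacked the first pair.

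At the limit of 2000 bp, the nearest members had gaps of 2005, 2013 and 2015 bp. The first, on chromosome V from 8423642 to 8424703, had a fold of 1.42 in N2 replicates 1 and 2 and 1.57 in replicate 3. The second, on chromosome III from 9836840 to 9837889, had 1.46 and 1.60 in replicates 1 and 2. The third, on chromosome II from 13383101 to 13383802, had 2.39, 2.09 and 1.96. Just outside, sites at 1967, 1966 and 1958 bp missed the rule. The one on chromosome III from 9859847 to 9860667 had 1.59 and 1.82 in replicates 1 and 2, and the one on chromosome V from 937944 to 938491 had 1.73 and 1.63 in replicates 1 and 3. The one on chromosome III from 13715220 to 13716339 had 3.17, 2.29 and 2.54. Folds thus lay between 1.42 and 2.39 in the 3 sites inside the limit and between 1.59 and 3.17 in the 3 outside it.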

How the data were processed

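The authors aligned read pairs to the ce10 genome using Bowtie2 2.3.2 and called peaks per replicate with MACS2 2.1.0 (q-value of 0.05, no model, extension to 300 bp), as listed in the submitters' processing notes and the study's methods. The control is not given in the sources used here. The deposited lists give the fold (ratio) over the local background, the −log10 of p-value and q-value, a score that is a multiple of the latter, and the summit. The lists hold no read totals, so depth is known only through the background level. The background level of a list is the Poisson mean on whose tails most p-values fall (within 1e-04, −log10 up to 60). Sites, runs and held-out calls were counted in Python 3.11.15 with numpy 2.4.6, pandas 2.3.3 and scipy 1.17.1, and tested on simulated lists. Members, sites to be named and lists were chosen with earlier results of these data known. Named sites were, per chromosome, the 3 members called in all 3 N2 samples with the highest lowest fold, and the 3 widest, the 3 most remote and the 3 on each side of the gap limit, besides runs of 4 or more. Alternatives were stricter q-values, other overlaps, gaps and numbers of samples, and leaving out each sample. The annotation at hand was of WBcel235, another build, so no genes or sequences were assigned.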

Additional observations from a re-analysis of the deposited data

How the results depend on the processing

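Recomputed values were compared with the reported ones, by 1.5 times for counts, by the interval or 1 SD for shares and medians, and by direction for the difference. By this measure 39 of 44 did not move while all samples were in use, nor did 25 of 27 where 1 sample was dropped. A call in all 3 N2 samples left 215 sites with a mean of median folds of 2.16, against 1.99 over all members. A gap of more than 5000 bp left 193 sites, 73.1% of them called in all 3 N2 samples, with a mean of median folds of 2.16. Both settings keep a subset of the members by construction. Without 1 sample, the mean of median folds lay between 1.93 and 2.15, and the share of members in the middle 50% of their chromosome between 39.9% (without *glp-4(bn2)* replicate 2) and 48.7%. The number of sites lay between 237, without N2 replicate 1, and 409, without *glp-4(bn2)* replicate 2. A q-value of at most 1e-05 in all lists left 310 sites, and 281 of the 329 members remained. The same limit in the N2 lists alone, an alternative chosen after seeing the data, left 281 sites. The difference in median fold from flanking sites, 0.23, was positive in every alternative. It lay between 0.12, with a gap of more than 1000 bp, and 0.39, with a gap of more than 5000 bp. Every alternative splits the sites by a gap, from which the difference may follow in part, so the constant sign does not settle that. Without 1 sample the difference lay between 0.15 (*glp-4(bn2)* replicate 2) and 0.34 (N2 replicate 1). The share called in all 3 samples has no value without an N2 sample. No paired analysis was possible because the members have no fold in *glp-4(bn2)* to set against that of the N2 sample with the same number. The difference from flanking sites was taken within each N2 sample. The peak lists limit what can be said of *glp-4(bn2)*, since a site without a call has no value there.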

Other observations

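N2 replicate 2 stood apart at a few strong and mostly narrow members, a pattern chosen after its values were seen. Of the 42 members that replicate 2 did not call, 6 had a fold of at least 2 in both replicates 1 and 3. No member that replicate 1 or replicate 3 lacked (19 and 53 members) had a fold of at least 2 in both of the others. The 6 sites lay on chromosomes II, IV and V. Besides the remote site of chromosome V given above, they were on chromosome II from 1860369 to 1861494, with folds of 2.50 and 2.22 in replicates 1 and 3, and from 11565156 to 11566550, with 2.55 and 2.78. On chromosome IV the site from 6294657 to 6295173 had 2.08 and 2.21. On chromosome V the site from 3564024 to 3564458 had 2.46 and 2.19, and the one from 19569024 to 19569680 had 2.38 and 2.33.

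The member with the highest fold of all goes the same way. It lay on chromosome V from 3570819 to 3571948, 7.17 kb from *glp-4(bn2)* binding and in one run with the site at 3564024. Its folds were 5.37 and 5.07 in N2 replicates 1 and 3 and 1.96 in replicate 2. Among the 215 members called in all 3 samples, replicate 2 was lower than both others by over 1.5 times at 3 sites and higher than both by over 1.5 times at 7. Replicate 1 never differed from both others by that much in either direction, and replicate 3 was the lower one at 4 sites. Whether these differences between N2 replicates are technical was not tested.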
